A study of Mus musculus with 2 samples.

Results

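Fos and Jun genes encode the subunits of AP-1, and 8 of the 19059 genes in the deposited gene list were taken as this family by their symbol: Fos, Fosb, Fosl1, Fosl2, Jun, Junb, Jund and Maff. They were described in dorsal root ganglia, which hold the cell bodies of sensory neurons, taken at the neck from mice that all received tamoxifen and 3 days of imiquimod on the skin, an irritant used to model psoriasis. Control mice were Foxp3 CreER; Penk fl/WT, with 1 floxed and 1 intact copy of Penk, and mice of the second library, called the Penk fl/fl library, were Foxp3 CreER; Penk fl/fl. Both groups carried the tamoxifen-inducible Cre under control of Foxp3, a gene of regulatory T cells. The tissue was fixed in 4% paraformaldehyde and read with probe pairs on fixed cells (a single-nucleus assay by the series text). Each group was 1 pooled library of a number of mice that the sources used here do not give. There was therefore no replicate check and no test between genotypes.

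AP-1 is a dimer of basic leucine zipper proteins that binds DNA through its basic region. Jun proteins pair with each other or with Fos proteins, while Fos proteins need a Jun partner, and the small Maf protein encoded by Maff lacks an activation domain of its own. In sensory neurons Fos and Fosb are immediate early genes that stimulation switches on briefly through the serum response factor and CREB, whereas Jun is known for its lasting rise after axon damage and Jund for its steady expression.

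The control library held 15690 cells after filtering and the Penk fl/fl library 12053, with medians of 2489 and 2252 unique molecular identifiers (UMIs) per cell. Clusters were named by resemblance to marker genes, which gave 10 neuron subtypes and 7 non-neuronal classes of 100 or more cells per library. Neurons made up 38.9% and 38.7% of cells and held 78.0% and 77.9% of UMIs. Generic neuron markers had no gene at 0 there and summed to 10932 and 10888 CPM (UMIs scaled to the total of the class). These clusters were picked as neurons by subtype markers, so this was no check of the tissue label. Of the neurons, 705 control and 345 Penk fl/fl cells lay in 4 clusters that matched no subtype, and 1 of these clusters held 358 and 93 cells, 5.87% and 1.99% of neurons. Fos was at 6.12 and 6.33 CPM in that cluster (82 and 29 UMIs). Penk, the targeted gene, had 582 UMIs in the control library and 4 in the other. In all, 4723 droplet barcodes occurred in both libraries, 30.1% and 39.1% of their barcodes, and the sources used here do not say whether the libraries shared a channel. All intervals are exact 95% intervals that cover counting error only, taking each UMI as independent, and leave out the spread between cells, mice and preparations. A ratio is the CPM of the Penk fl/fl library over that of the control, and a ratio of at most 0.8, or of at least its inverse, is called past the size step. A UMI level was not compared between genes, because each gene has its own probes.

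The 5′ flanks of 4 members are shown because Fos, Fosb and Junb had lower levels in neurons of the Penk fl/fl library while Jund was close to the control. Each run is the 300 bases from 350 to 51 bases before the start of the canonical transcript (GRCm39), at chr12:85520308-85520607 on the plus strand for Fos, chr7:19044027-19044326 on the minus strand for Fosb, chr8:85705398-85705697 on the minus strand for Junb and chr8:71151249-71151548 on the plus strand for Jund. Capitals mark the serum response element type called the CArG box and the CREB-type letters TGACG on either strand (CGTCA as printed), including the full palindrome TGACGTCA, which overlaps a pair of TGACG matches.
Fos: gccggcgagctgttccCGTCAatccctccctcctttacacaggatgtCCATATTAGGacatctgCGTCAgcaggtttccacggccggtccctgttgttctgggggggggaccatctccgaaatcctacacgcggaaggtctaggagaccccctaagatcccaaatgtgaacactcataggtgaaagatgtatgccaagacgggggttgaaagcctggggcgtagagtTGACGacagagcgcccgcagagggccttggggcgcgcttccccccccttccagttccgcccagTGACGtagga
Fosb: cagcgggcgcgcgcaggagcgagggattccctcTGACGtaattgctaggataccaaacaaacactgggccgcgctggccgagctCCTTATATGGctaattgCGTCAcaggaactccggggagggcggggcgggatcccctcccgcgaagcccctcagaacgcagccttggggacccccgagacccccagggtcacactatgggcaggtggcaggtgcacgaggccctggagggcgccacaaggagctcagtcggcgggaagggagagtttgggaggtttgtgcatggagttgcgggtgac
Junb: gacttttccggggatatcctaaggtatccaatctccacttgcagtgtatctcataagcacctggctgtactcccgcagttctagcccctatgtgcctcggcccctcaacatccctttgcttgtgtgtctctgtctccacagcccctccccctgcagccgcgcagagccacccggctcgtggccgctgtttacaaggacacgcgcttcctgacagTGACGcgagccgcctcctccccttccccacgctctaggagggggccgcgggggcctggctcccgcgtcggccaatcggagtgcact
Jund: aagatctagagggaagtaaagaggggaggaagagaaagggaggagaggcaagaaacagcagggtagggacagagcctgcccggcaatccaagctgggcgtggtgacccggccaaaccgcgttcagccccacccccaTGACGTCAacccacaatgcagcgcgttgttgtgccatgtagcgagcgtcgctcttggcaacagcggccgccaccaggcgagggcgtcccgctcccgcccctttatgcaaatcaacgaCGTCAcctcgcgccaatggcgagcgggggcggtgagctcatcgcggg
Among 19043 such windows of all genes, 1.48% held a CArG box, 16.9% TGACG and 0.909% TGACGTCA. The CArG box was found in 2 of the 8 members, Fos (303 to 294 bases before the start) and Fosb (266 to 257 bases before it). TGACG was found in 6 of the 8, with 4 matches in Fos, 2 in Fosb, 2 in Jun, 1 in Junb, 1 in Fosl1 and 3 in Jund, and the Jund window alone among the members held the palindrome. The AP-1 letters TGANTCA, present in 7.42% of windows, were in no member's window, and Maff held a match to TGACNTCA (5.53% of windows) on the opposite strand. These matches are descriptions of letters and do not show that a factor was bound.

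Fos and Fosb were the members with the lowest ratios in neurons. Fos, the founding Fos family gene and a common marker of recent neuronal activity (chromosome 12, 85520658 to 85524047, plus strand, 4 exons), had 1371 UMIs or 6.78 CPM in the control neurons and 489 UMIs or 4.01 CPM in the Penk fl/fl neurons. The ratio was 0.591 (0.532 to 0.656). Fosb, whose products include a long-lived short form (chromosome 7, 19036621 to 19043976, minus strand), had 195 and 66 UMIs, or 0.965 and 0.541 CPM, a ratio of 0.561 (0.418 to 0.746). Thus 2 of 8 members were lower by the step in neurons, where 5.75% of 14045 genes with at least 50 UMIs were, and 0 were higher, against 3.03% of those genes. The median ratio was 0.933 over the members and 0.996 over all those genes.

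**Figure D1:**
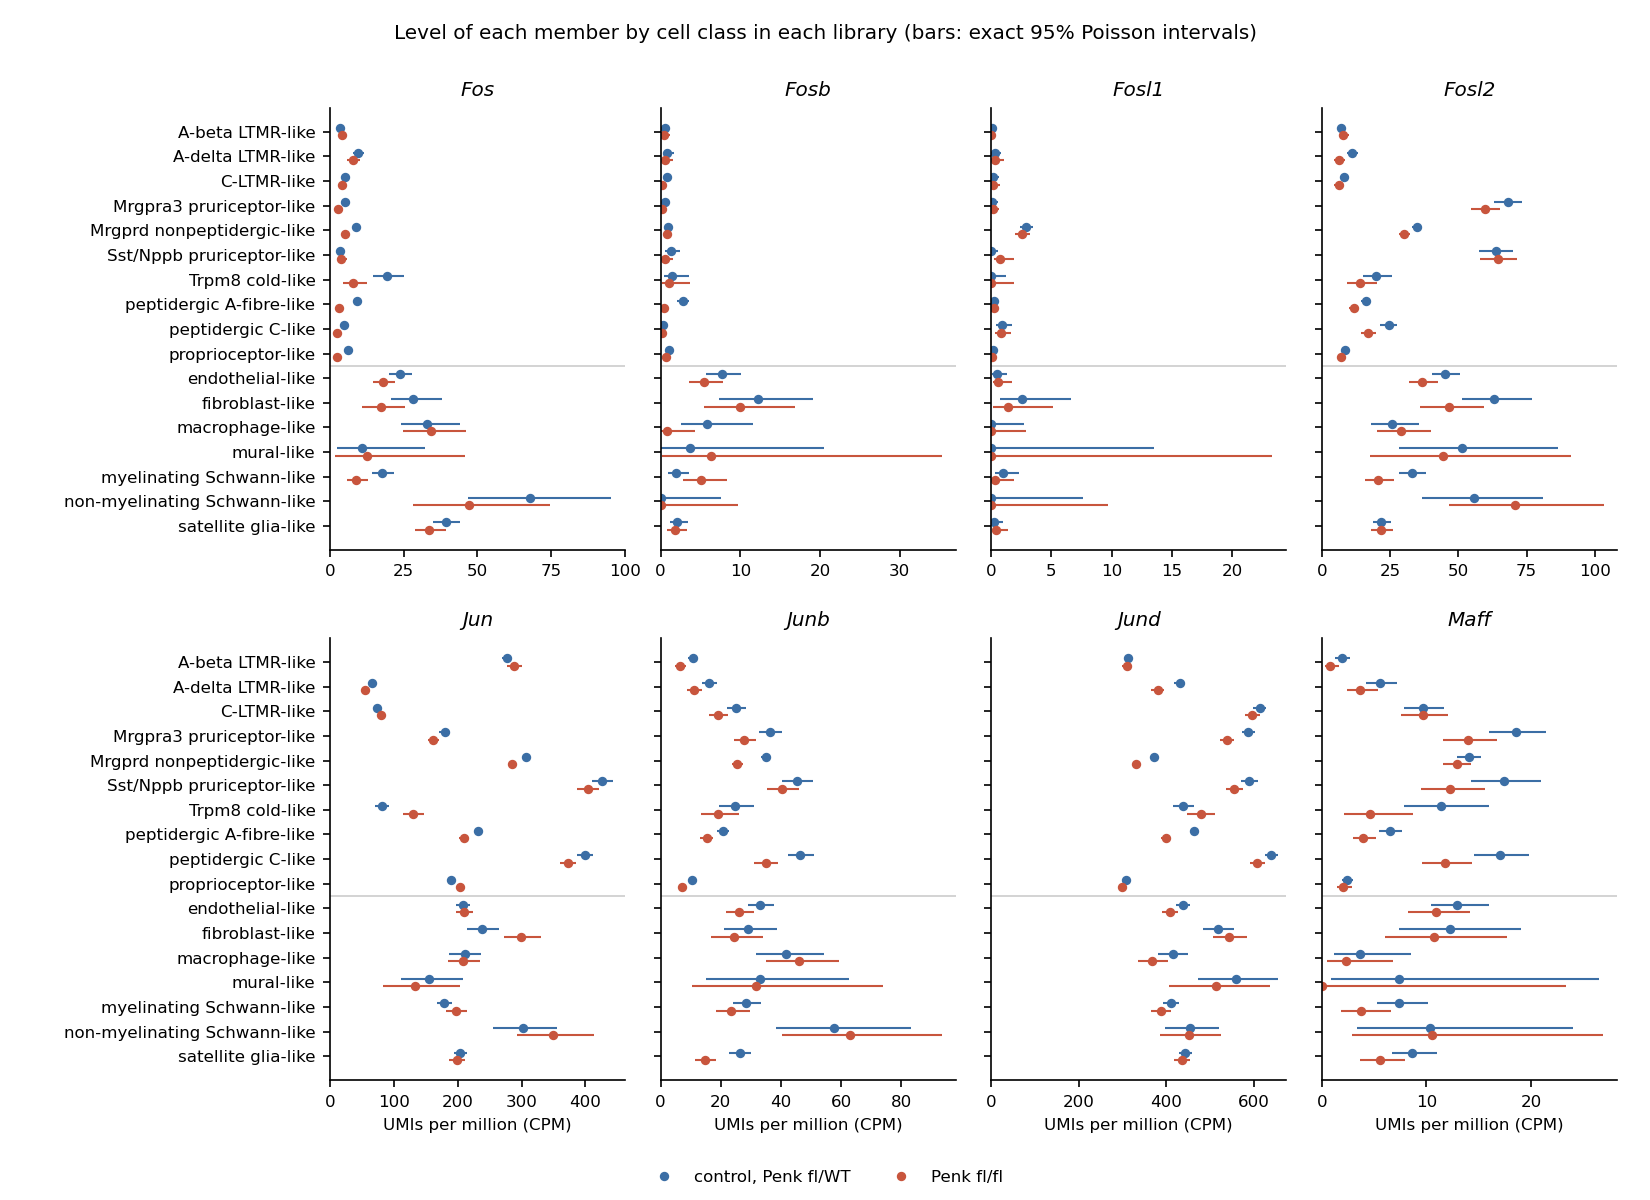
Level of each member (x axes, CPM of the class total, each panel with its own linear scale) in 10 neuron subtypes (above the grey line) and 7 non-neuronal classes; points are the single library of each group and bars exact 95% Poisson intervals. Fos is highest in non-myelinating Schwann-like cells, Fosb in fibroblast-like cells and Fosl1 in Mrgprd nonpeptidergic-like neurons, at 2.89 and 2.54 CPM.

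Fos was not lower in every subtype. In proprioceptor-like neurons, which sense muscle stretch, Fos was at 6.24 and 2.45 CPM (218 and 45 UMIs, ratio 0.393, 0.278 to 0.543). In Mrgprd nonpeptidergic-like neurons, skin-innervating nociceptors, it was at 8.72 and 5.21 CPM (377 and 148 UMIs, 0.598, 0.491 to 0.725). Trpm8 cold-like neurons had the highest neuronal level in the control, 19.3 CPM, and 7.69 CPM in the other library (56 and 15 UMIs, 0.399, 0.210 to 0.716). These 3 subtypes were all lower by the step. Mrgpra3 pruriceptor-like neurons, which carry itch receptors, were at 5.24 and 2.59 CPM (0.495, 0.287 to 0.828), and peptidergic C-like neurons at 4.84 and 2.54 CPM (0.526, 0.302 to 0.888). Low-threshold touch neurons and the second itch subtype gave intervals that included 1. A-beta LTMR-like neurons were at 3.42 and 4.00 CPM (1.17, 0.746 to 1.81), A-delta LTMR-like at 9.50 and 7.75 (0.816, 0.573 to 1.15) and C-LTMR-like at 4.93 and 4.17 (0.847, 0.528 to 1.34). With each cell weighted equally the A-delta LTMR-like ratio was 1.77, so its direction depended on the weighting. Over the alternatives the ratio reached 0.738 in Trpm8 cold-like and 0.834 in Mrgpra3 pruriceptor-like neurons, the latter short of the step. Sst/Nppb pruriceptor-like neurons were at 3.45 and 3.66 CPM on 22 and 20 UMIs (1.06, 0.550 to 2.04), too few UMIs to tell the ratio of all neurons from 1. Whether subtypes differed from each other was not tested.

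In peptidergic A-fibre-like neurons, myelinated nociceptors, the Fos and Fosb values rested on 1 cell. Fos was at 9.18 and 3.19 CPM there (185 and 43 UMIs, 0.347, 0.243 to 0.486). A single control neuron of 123584 UMIs held 100 of those 185 Fos UMIs, whereas the next highest control neurons of any subtype held 10 and 9 and the highest Penk fl/fl neuron held 9. Its droplet barcode occurred in both libraries. The same neuron had 36 Fosb, 31 Junb, 107 Jun, 110 Jund, 7 Fosl2, 6 Maff and 0 Fosl1 UMIs. Scaled to its own UMIs, Fos was at 809 CPM against 4.24 in the other 545 control neurons of the subtype, Fosb at 291 against 0.998, Junb at 251 against 19.2 and Jun at 866 against 228. It also carried 13 UMIs of Npas4, 20 of Nr4a1, 23 of Nr4a2, 16 of Nr4a3 and 28 of Atf3, but only 1 of Egr1, 0 of Egr3 and 0 of Arc. Of 14 further stimulus-linked genes read in this neuron after its Fos count was seen, 9 stood above the rest of its subtype and 5 did not (Egr1, Egr2, Egr3, Egr4 and Arc). Of the 32 genes of the immediate early list, 23 had a UMI there. The control neurons ranked 2 to 5 by Fos UMIs had 8 to 25, and the Penk fl/fl neurons ranked 1 to 5 had 13 to 23. That count was thus not particular to this neuron.

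Leaving out the highest cell of each library left Fos and Fosb lower by the step in neurons. Without it, the Fos ratio in peptidergic A-fibre-like neurons was 0.599 and that of Fosb 0.379. Over 10 alternatives the Fos ratio there ran from 0.0240, among neurons low in glial markers, to 0.794, without the cells most like doublets, and over 8 that of Fosb ran from 0.0339 to 0.617. Over all neurons, without the highest cell of each library, the Fos ratio was 0.626 and the Fosb ratio 0.647. That 1 control neuron held 7.29% of neuronal Fos UMIs and 18.5% of neuronal Fosb UMIs.

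Fos was otherwise spread thinly over many neurons. In the control library 5338 of 6100 neurons had no Fos UMI, 503 had 1, 224 had 2 to 4, 33 had 5 to 9 and 2 had 10 or more. In the Penk fl/fl library 4333 of 4669 had none, 249 had 1, 79 had 2 to 4, 8 had 5 to 9 and 0 had 10 or more. The share of neurons with a Fos UMI was 12.5% (11.7 to 13.4) and 7.20% (6.47 to 7.98), at median depths of 11626 and 8456 UMIs. No class is known to lack Fos, so a background share from free RNA could not be set beside these. The highest 1% of neurons held 29.1% and 32.7% of Fos UMIs while holding 4.57% and 5.27% of all neuronal UMIs. For Jund, the steady member, the highest 1% held 8.43% and 8.68% of its UMIs and 7.02% and 7.89% of all UMIs. Neurons were ranked by the member's own UMIs, so a gene with few UMIs gets a high share from the ranking alone. The share expected at the same count was not computed, so the gap between Fos and Jund cannot be read as a difference in spread.

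**Figure D2:**
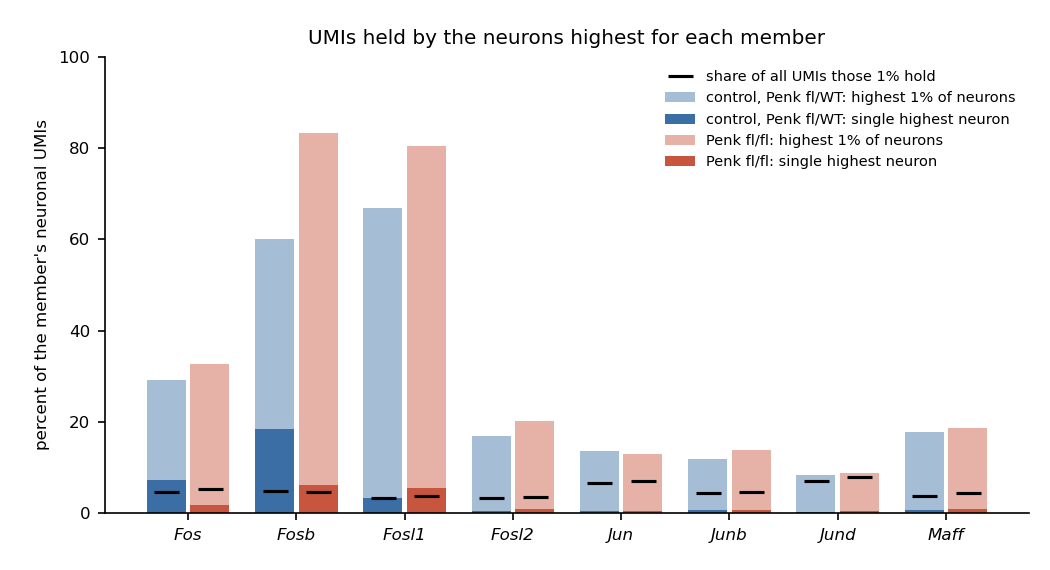
Share of each member's neuronal UMIs (y axis, percent) held by the highest 1% of neurons (pale bars, 61 control and 47 Penk fl/fl neurons) and by the single highest neuron (dark bars); black marks give the share of all UMIs those 1% hold. The single control neuron stands out for Fos (7.29%) and Fosb (18.5%), and the bars of Jund lie close to the marks. Neurons are ranked by each member's own UMIs, which alone gives members with few UMIs tall pale bars.

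The control neurons were deeper, so neurons of like depth were compared. The Fos ratio was 0.582 (0.389 to 0.857) in neurons of 2000 to 10000 UMIs, 0.585 (0.472 to 0.723) from 10000 to 50000 and 0.595 (0.522 to 0.676) above 50000. Below 2000 UMIs there were 12 and 7 Fos UMIs. With neurons thinned to 2000 UMIs, which left out 828 control and 762 Penk fl/fl neurons, 74 and 43 neurons had a Fos UMI, or 1.40% (1.10 to 1.76) and 1.10% (0.798 to 1.48). The thinned Fos ratio was 0.742 (0.502 to 1.09), so at that depth the counting error did not separate the libraries. Thinned to 500 UMIs, 27 and 9 Fos UMIs remained (0.436, 0.180 to 0.954).

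**Figure D3:**
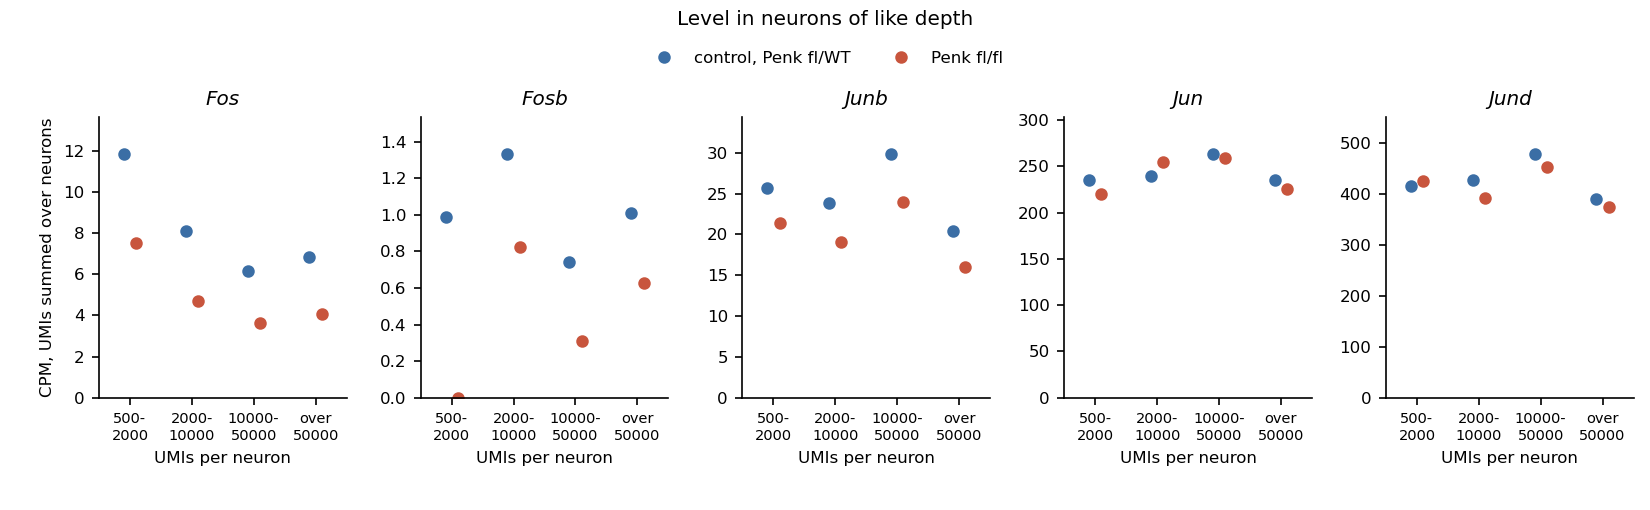
Level of 5 members (y axes, CPM summed over neurons) in neurons grouped by their own depth (x axes, UMIs per neuron), 1 point per library. Fos and Junb are lower in the Penk fl/fl library in each of the 4 depth ranges, with Fos ratios of 0.582, 0.585 and 0.595 in the 3 deeper ones.

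Glial marker UMIs in neuronal barcodes also differed between the libraries. All 7 satellite glia markers were lower in the Penk fl/fl neurons, with summed levels of 314 and 274 CPM (0.874) and none at 0, while the 10 myelinating Schwann markers summed to 928 and 921 CPM. Satellite glia-like cells had more Fos than neurons, at 39.3 and 33.8 CPM. Among neurons under the median share of glial marker UMIs, Fos was at 7.03 and 3.41 CPM (0.486, 0.418 to 0.563), and among those at or above it at 6.50 and 4.79 CPM (0.736, 0.634 to 0.854). The Fos ratio was thus lower where glial markers were scarce, in neurons that were also deeper, with medians of 17422 and 12934 UMIs against 8128 and 5973. The single control neuron with 100 Fos UMIs was kept in this comparison, and its part in the gap was not tested. The part of glial RNA and of depth in the Fos ratio was not tested either. In neurons of named subtypes alone it was 0.571.

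Outside neurons, Fos was highest in non-myelinating Schwann-like cells, which ensheath small axons, at 68.0 and 47.2 CPM. Both libraries ranked this class above the 16 others. Satellite glia-like cells (0.860, 0.709 to 1.04) and macrophage-like cells at 33.0 and 34.3 CPM (1.04, 0.670 to 1.61) came next. Fibroblast-like cells were at 28.3 and 17.2 CPM (0.607, 0.353 to 1.02) and endothelial-like cells at 23.7 and 17.9 CPM (0.756, 0.578 to 0.982). Myelinating Schwann-like cells had the lowest non-neuronal ratio, 17.7 and 8.74 CPM on 91 and 26 UMIs (0.494, 0.306 to 0.771). Mural-like cells had 3 and 2 Fos UMIs. Of the 16 pairs of neighbouring classes in the order of Fos levels, 13 had overlapping library ranges, among them the 9 lowest, all neuron subtypes.

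Fosb followed another order, with fibroblast-like cells highest at 12.2 and 10.0 CPM and endothelial-like cells at 7.66 and 5.45 CPM (0.712, 0.433 to 1.15). In neurons its counts were small. Peptidergic A-fibre-like neurons had 56 and 6 UMIs (0.160, 0.0563 to 0.371), 36 of the 56 in the single neuron described above. Mrgprd nonpeptidergic-like neurons had 40 and 24 (0.914, 0.527 to 1.55) and proprioceptor-like neurons 37 and 12 (0.617, 0.293 to 1.21). Myelinating Schwann-like cells went the other way on 10 and 15 UMIs (2.59, 1.09 to 6.45). The highest 1% of neurons held 60.0% of Fosb UMIs in the control library and 83.3% in the other, and only 139 and 58 neurons had any. With so few, ranking by Fosb itself makes these shares high.

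Fosl1, which encodes Fra-1 (chromosome 19, 5497575 to 5505974, plus strand), was concentrated among neurons in the Mrgprd nonpeptidergic-like subtype, which held 125 of 154 neuronal UMIs in the control library, 81.2% (74.1 to 87.0), and 72 of 92 in the other, 78.3% (68.4 to 86.2), while holding 21.4% and 23.3% of all neuronal UMIs. Of the Fosl1 UMIs of all cells it held 66.5% (59.3 to 73.2) and 65.5% (55.8 to 74.3). Fibroblast-like cells came next at 2.57 and 1.43 CPM on 4 and 2 UMIs, a range that overlapped that of the Mrgprd subtype. A Fosl1 UMI was found in 6.15% of 1464 and 4.02% of 1195 such neurons, at median depths of 10216 and 6818 UMIs. The share was 0.298% and 0.131% in proprioceptor-like neurons, at 7723 and 5168 UMIs, and Trpm8 cold-like neurons had 0 UMIs in 213 and 181 cells. Between libraries the level did not separate, at 2.89 and 2.54 CPM (0.877, 0.647 to 1.18) in the Mrgprd subtype and 0.762 and 0.755 CPM in all neurons (0.991, 0.757 to 1.29).

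Fosl2, which encodes Fra-2 (chromosome 5, 32292707 to 32315186, plus strand), marked the itch subtypes among neurons. It was at 63.6 and 64.5 CPM in Sst/Nppb pruriceptor-like neurons and at 68.0 and 59.7 CPM in Mrgpra3 pruriceptor-like neurons. The 4 lowest subtypes were A-delta LTMR-like, proprioceptor-like, A-beta LTMR-like and C-LTMR-like neurons, all between 6.13 and 11.2 CPM in both libraries. Over all neurons the libraries were close, 21.0 and 20.3 CPM (0.967, 0.920 to 1.02). Within subtypes the ratio was below 1 in 8 of 10, with 0.561 (0.386 to 0.801) in A-delta LTMR-like, 0.692 (0.559 to 0.853) in peptidergic C-like and 0.730 in peptidergic A-fibre-like neurons. The Penk fl/fl library had more of its neuronal UMIs in the subtypes high in Fosl2, with 4.48% against 3.16% in the Sst/Nppb and 6.97% against 5.01% in the Mrgpra3 subtype. With named subtypes weighted equally the Fosl2 ratio in neurons was 0.856. Outside neurons it was at 32.9 and 20.5 CPM in myelinating Schwann-like cells (0.624, 0.458 to 0.841) and at 55.6 and 70.9 CPM in non-myelinating ones (1.27, 0.719 to 2.26).

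Jun, the main partner of Fos proteins (chromosome 4, 94937271 to 94940459, minus strand, 1 exon), differed widely between subtypes and, over all neurons, little between libraries. Its level ran from 66.0 and 54.4 CPM in A-delta LTMR-like neurons to 426 and 404 CPM in Sst/Nppb pruriceptor-like neurons, with peptidergic C-like neurons at 399 and 372 CPM. All 16 other classes lay below the Sst/Nppb subtype in both libraries. Over all neurons Jun was at 242 and 237 CPM (48949 and 28860 UMIs, 0.978, 0.964 to 0.992). Trpm8 cold-like neurons were the exception, at 81.2 and 130 CPM (236 and 253 UMIs, 1.60, 1.33 to 1.92), but the ratio was 1.02 when the cells were clustered at a lower resolution. Fibroblast-like cells were at 239 and 300 CPM (1.26, 1.09 to 1.45), past the step by a narrow margin, and at 1.03 after thinning. Touch neuron ratios depended on the processing, from 0.713 to 1.73 in A-delta LTMR-like (0.824 as summed) and up to 1.76 in C-LTMR-like neurons (1.08 as summed), the last after thinning.

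Junb, often an antagonist of Jun activity (chromosome 8, 85701113 to 85705359, minus strand, 1 exon), was lower in the Penk fl/fl library in 10 of 10 neuron subtypes. The subtypes come from the same 2 libraries and are not replicates. The share of all genes below 1 in as many subtypes was not computed, for Junb or the other members. Medians over all genes with at least 50 UMIs ran from 0.986 in Mrgpra3 pruriceptor-like to 0.999 in Trpm8 cold-like neurons. Over all neurons Junb was at 22.8 and 18.6 CPM (4614 and 2270 UMIs, 0.816, 0.775 to 0.858), just short of the step. Subtype ratios ran from 0.607 (0.442 to 0.821) in A-beta LTMR-like to 0.893 (0.747 to 1.07) in Sst/Nppb pruriceptor-like neurons, with a median of 0.746, and 8 of the 10 intervals lay below 1. In 2 of the 10 the direction turned under an alternative, to 1.13 in peptidergic A-fibre-like neurons with cells weighted equally and to 1.01 in C-LTMR-like neurons under the median glial share. The large Mrgprd nonpeptidergic-like subtype was at 35.0 and 25.5 CPM (0.729, 0.666 to 0.797). With subtypes weighted equally the neuronal ratio was 0.763, which passes the step. By depth, Junb ratios were 0.801 (0.654 to 0.980), 0.801 (0.735 to 0.873) and 0.787 (0.736 to 0.842) in the 3 deeper ranges, and thinned to 2000 UMIs the ratio was 0.796 (0.650 to 0.974).

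Among named classes, glia held the lowest Junb ratio. Satellite glia-like cells, which wrap neuronal cell bodies, were at 26.3 and 14.6 CPM (201 and 74 UMIs, 0.556, 0.420 to 0.729). They formed a pair of clusters of very different depth, and the ratio was 0.504 (0.283 to 0.865) in the shallow one of 930.5 and 938.5 median UMIs and 0.581 (0.418 to 0.797) in the deep one of 17564 and 16790. Macrophage-like cells were at 41.9 and 46.0 CPM (1.10, 0.751 to 1.61) and non-myelinating Schwann-like cells, the class with most Junb, at 57.7 and 63.0 CPM (1.09, 0.606 to 1.95).

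**Figure D4:**
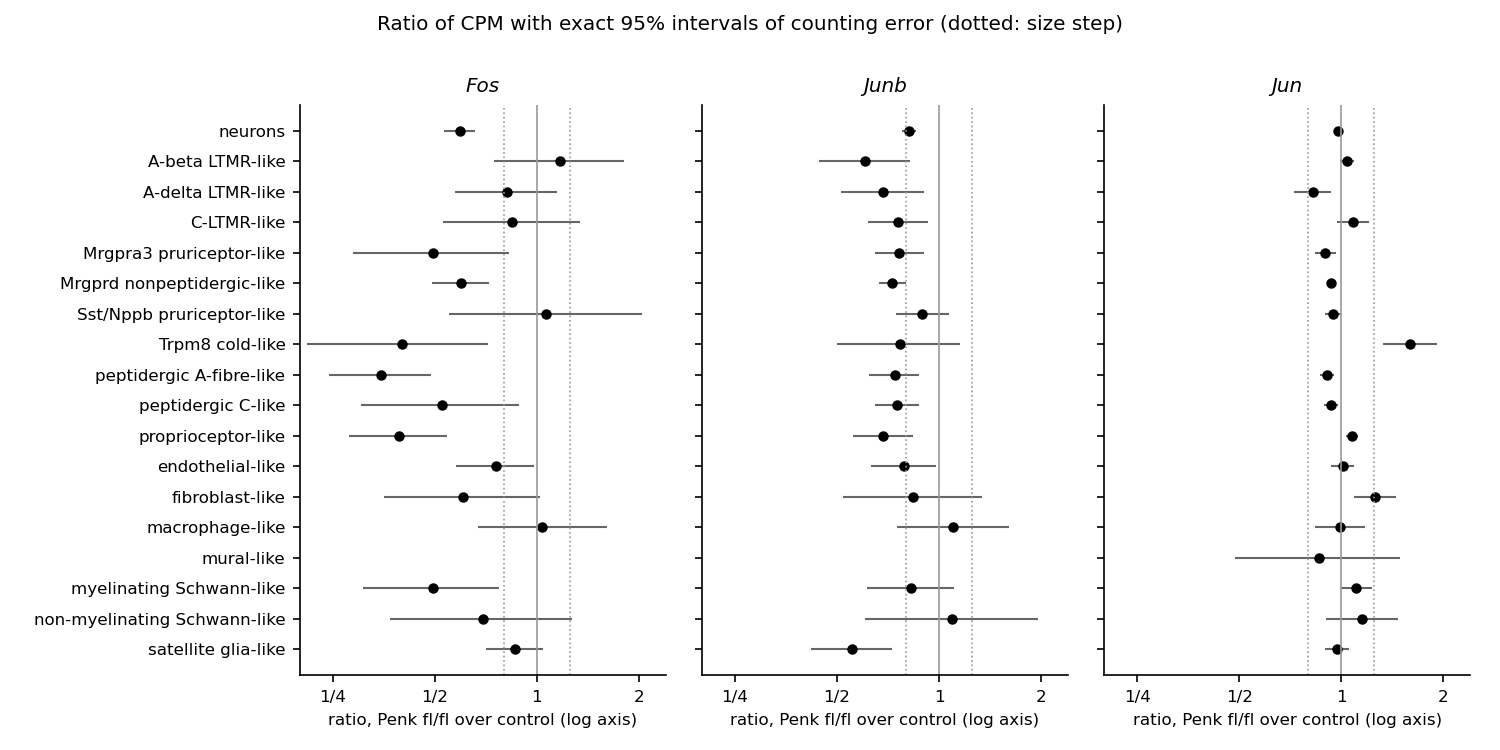
Ratio of Penk fl/fl to control level (x axes, log scale) for Fos, Junb and Jun in all neurons, 10 subtypes and 7 non-neuronal classes, with exact 95% intervals of counting error; dotted lines mark the size step and no point is drawn under 20 UMIs. Junb lies below 1 in 10 of 10 subtypes, Fos in 8 of 10, and Jun lies near 1 apart from Trpm8 cold-like neurons and fibroblast-like cells. The subtypes come from the same libraries and are not replicates.

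Jund, the most evenly expressed Jun gene (chromosome 8, 71151599 to 71153265, plus strand, 1 exon), varied least over the classes. Its control levels in neuron subtypes ran from 308 CPM in proprioceptor-like to 640 CPM in peptidergic C-like neurons, and the same subtypes stood at 299 and 608 CPM in the Penk fl/fl library. The neuronal ratio was 0.966 (0.955 to 0.977) and subtype ratios ran from 0.861 in peptidergic A-fibre-like to 1.09 in Trpm8 cold-like neurons, none past the step. Jund thus moved by far less than Fos, Fosb and Junb in the same neurons.

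Among neurons, Maff (chromosome 15, 79230821 to 79243276, plus strand, 3 exons) was highest in the pruriceptor, peptidergic C-like and Mrgprd nonpeptidergic-like subtypes. It was lowest in A-beta LTMR-like and proprioceptor-like neurons. The Mrgprd subtype, at 14.0 and 12.9 CPM (607 and 366 UMIs), overlapped the peptidergic C-like one at 17.1 and 11.8 CPM. Mrgpra3 pruriceptor-like neurons were at 18.6 and 14.0 CPM and A-beta LTMR-like neurons had 32 and 7 UMIs. The ratio was below 1 in 10 of 10 subtypes, from 0.406 (0.171 to 0.868) in Trpm8 cold-like to 0.998 (0.731 to 1.36) in C-LTMR-like neurons, with a median of 0.699. As for Junb, the subtypes are not replicates and the count has no share over all genes beside it. In 4 of the 10 the ratio passed 1 under an alternative, up to 1.16 in Mrgpra3 pruriceptor-like neurons. Over all neurons it was nearer 1, at 8.22 and 7.41 CPM (0.901, 0.830 to 0.978), and 0.725 with subtypes weighted equally. As with Fosl2, the subtypes high in Maff held more of the neuronal UMIs in the Penk fl/fl library, for instance 7.09% against 4.91% in peptidergic C-like neurons.

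Counted by class, between 0 and 5 members were lower by the step. Among the 7 members with at least 50 UMIs in peptidergic A-fibre-like neurons, 5 were lower (Fos, Fosb, Fosl2, Junb and Maff), against 5.37% of all such genes. Fosb reached 50 UMIs there only through the single control neuron described above, which held 36 of its 56 control UMIs. In peptidergic C-like neurons 4 of 6 were lower (Fos, Fosl2, Junb and Maff), against 6.18%. A-delta LTMR-like neurons had 3 of 6 lower (Fosl2, Junb and Maff), against 7.70%, and Mrgpra3 pruriceptor-like neurons 3 of 6 (Fos, Junb and Maff), against 8.21%. Trpm8 cold-like neurons had 3 of 5 lower (Fos, Fosl2 and Junb), against 10.2%, and 1 higher (Jun), against 7.60%. Junb was thus in each of these 5 sets.

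In the other subtypes 1 or 2 members were lower and none higher. These were Fos and Junb among 8 members in Mrgprd nonpeptidergic-like neurons, against 4.86% of genes, and among 6 in proprioceptor-like neurons, against 5.37%. They were Fosl2 and Junb among 6 in C-LTMR-like neurons, against 7.34%, Junb among 5 in A-beta LTMR-like neurons, against 5.77%, and Maff among 5 in Sst/Nppb pruriceptor-like neurons, against 7.07%. The Sst/Nppb subtype also had the highest Egr1 ratio of the subtypes, at 15.4 and 25.8 CPM (1.68, 1.29 to 2.20), while Egr1 was below 1 in the 9 others.

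Among non-neuronal classes, 3 of 7 members were lower in endothelial-like cells (Fos, Fosb and Junb), against 6.14% of genes. The count was 2 of 6 in satellite glia-like cells (Junb and Maff), against 5.60%, and 2 of 5 in myelinating Schwann-like cells (Fos and Fosl2), against 6.80%. In fibroblast-like cells 2 of 5 were lower (Fos and Fosl2), against 12.2%, and 1 higher (Jun), against 11.4%. Non-myelinating Schwann-like cells had 1 of 5 lower (Fos), against 16.5%, and 1 higher (Fosl2), against 14.3%, which is a small number of genes beside a wide background. Macrophage-like cells had 0 of 5 in either direction, against 10.5% lower and 11.8% higher.

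**Figure D5:**
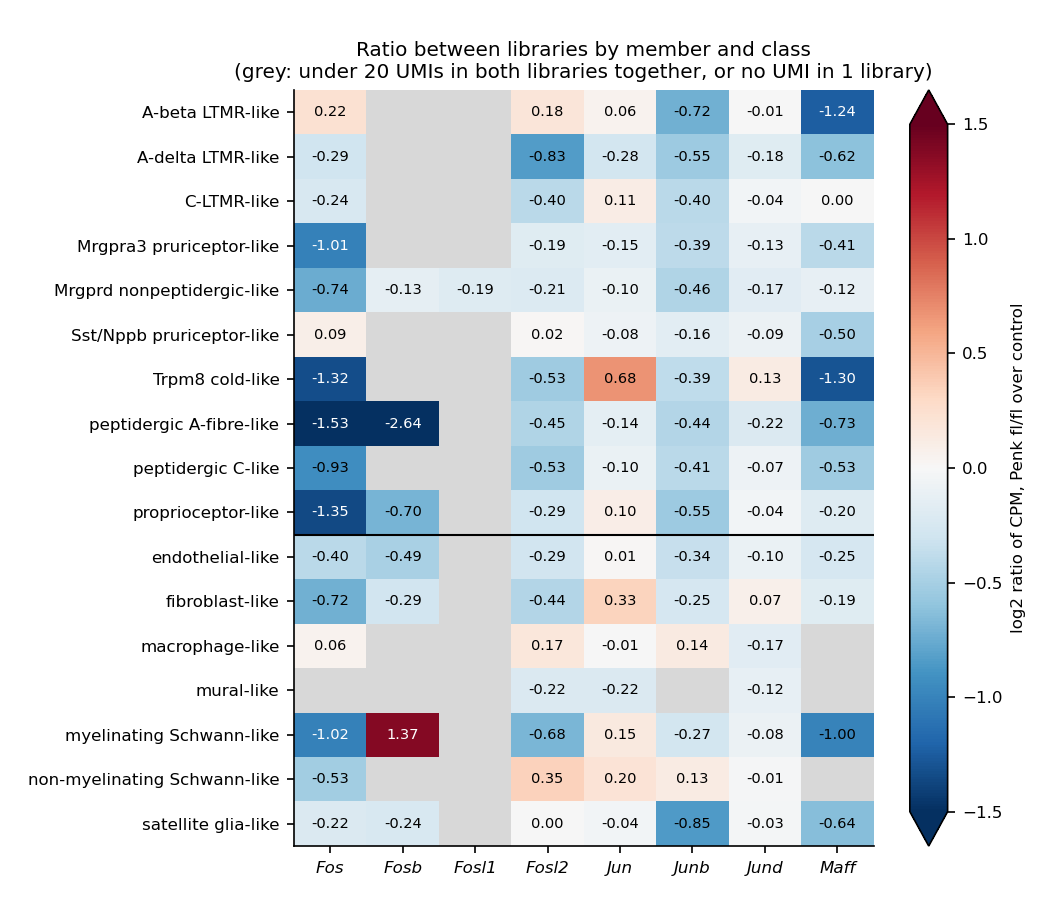
Log2 ratio of Penk fl/fl over control level for each member (columns) in each class (rows, neuron subtypes above the line), with blue lower and red higher in the Penk fl/fl library; grey cells had too few UMIs. Most cells of the Fos, Junb and Maff columns are blue, and the Jun and Jund columns are pale apart from Jun in Trpm8 cold-like neurons.

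Genes of the same pathway were read from 6 further lists in neurons. Of the immediate early genes, which stimulation switches on along with Fos, 8 of 30 with at least 50 UMIs were lower and 0 higher, with a median of 0.864, beside 5.75% lower and 3.03% higher over all neuronal genes. Over the 10 subtypes 51 of 206 gene and subtype pairs were lower and 4 higher. Of all genes, 4.86% (Mrgprd nonpeptidergic-like) to 10.2% (Trpm8 cold-like) were lower in a subtype. The higher shares ran from 3.21% (C-LTMR-like) to 7.60% (Trpm8 cold-like). More genes were lower than higher in each subtype but the Mrgprd one. Npas4, an activity-dependent transcription factor, had 55 and 10 UMIs (0.302, 0.137 to 0.597), although 13 of the 55 lay in the single control neuron described above. Egr3 was at 4.01 and 1.92 CPM (0.478, 0.412 to 0.554), Egr1 at 17.6 and 10.5 CPM (0.597, 0.559 to 0.636) and the orphan receptor gene Nr4a1 at 19.0 and 11.9 CPM (0.624, 0.587 to 0.664). The others past the step were Egr4, Nr4a3, Arc and Klf4. The kinases and factors upstream of AP-1 showed no such pattern, with 0 of 22 lower and 0 higher and a median of 1.02.

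Other leucine zipper partners had a median of 0.972, with 2 of 17 lower and 0 higher, against 5.75% and 3.03% of neuronal genes. The 2 were Batf3 (163 and 69 UMIs, 0.702, 0.522 to 0.936) and Mafa, a large Maf factor of touch neurons (18.3 and 13.8 CPM, 0.752, 0.709 to 0.796), which is also among the A-beta LTMR markers. Of 16 reported AP-1 target genes, 2 were lower and 2 higher, against the same shares of neuronal genes, with a median of 0.967. Npy had 131 and 10 UMIs (0.127, 0.0593 to 0.240) and Mmp9 97 and 46 (0.786, 0.541 to 1.13). Sprr1a was at 3.91 and 5.43 CPM (1.39) and Th at 90.4 and 124 CPM (1.37, 1.34 to 1.40). Th is also a marker of C-LTMR-like neurons, which held 5.33% and 6.30% of neuronal UMIs. Within subtypes, where 4.86% to 10.2% of all genes were lower and 3.21% to 7.60% higher, the target list leaned lower. It had 34 of 91 gene and subtype pairs lower and 7 higher. It was 6 of 10 lower in peptidergic A-fibre-like neurons (0 higher, against 5.37%), 5 of 10 in peptidergic C-like (0 higher, against 6.18%) and 5 of 8 in Mrgpra3 pruriceptor-like neurons (0 higher, against 8.21%).

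Of 14 nerve injury genes, 1 was lower (Npy) and 3 higher (Sprr1a, Nts and Cckbr), against 5.75% and 3.03% of neuronal genes. The median was 1.05. Subtypes varied, with 23 of 88 gene and subtype pairs lower and 12 higher (all genes 4.86% to 10.2% and 3.21% to 7.60%). Medians ran from 0.572 in A-delta LTMR-like (4 of 8 lower, against 7.70%) to 1.18 in C-LTMR-like neurons (3 of 7 higher, against 3.21%). Nts, a marker of the Sst/Nppb subtype, was at 11.6 and 15.8 CPM (1.36, 1.28 to 1.45), beside summed levels of that subtype's 7 markers of 203 and 286 CPM in neurons. Of 15 heat shock and dissociation stress genes 0 were lower and 0 higher, with a median of 0.988. Over the 10 subtypes 8 of 146 gene and subtype pairs were lower and 10 higher. C-LTMR-like neurons had 2 of 15 lower (against 7.34%) and 4 higher (against 3.21%). Outside neurons, immediate early genes lower by the step numbered 9 of 26 in endothelial-like cells (against 6.14%), 9 of 27 in satellite glia-like cells (against 5.60%) and 7 of 26, with 1 higher, in myelinating Schwann-like cells (against 6.80%). They numbered 11 of 20, with 2 higher, in fibroblast-like cells (against 12.2% and 11.4%), 7 of 19, with 2 higher, in macrophage-like cells (against 10.5% and 11.8%) and 2 of 8 in non-myelinating Schwann-like cells (against 16.5%). In macrophage-like cells this went with 0 of 5 AP-1 members past the step.

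The genes whose levels followed each member most closely were ranked over 34 points, the 17 classes of both libraries, among 12267 genes, by Pearson correlation of log2(CPM + 1). Points of a library share its depth and the order of classes, so these values are descriptions. Fos was followed most closely by Mtdh (0.920), C4b (0.910) and Sqor (0.909), of which C4b, a complement gene, was highest in non-myelinating Schwann-like cells. Fosb was followed by Tbx18 (0.878), Fbln1 (0.875) and Bmp5 (0.842), all highest in fibroblast-like cells. Fosl1 was followed by Hal (0.746), Nkain1 (0.657) and Cd109 (0.633), all highest in Mrgprd nonpeptidergic-like neurons. Fosl2 was followed by Tmem63a (0.912), Cd82 (0.884) and Osmr (0.880), the last encoding the oncostatin M receptor of itch neurons.

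The Jun genes had other neighbours. Jun was followed by Plekhh1 (0.740), Hacd2 (0.720) and Dkk3 (0.710), Junb by Mapk14 (0.917), Polr2a (0.896) and Dynlt1f (0.883) and Jund by Cers5 (0.836), Pwwp3a (0.822) and Zfp512b (0.799). Maff was followed by Rmnd5b (0.834), Bbc3 (0.820) and Med25 (0.812). Among the members themselves the highest value was that of Fosl2 with Junb (0.790), while Fos with Jun gave 0.0109. Fos and Jun levels were thus not ordered alike over the classes.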

How the data were processed

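Fixed cells were read with a probe-based kit. The authors deposited raw UMI counts for each barcode. Cell Ranger is named as version 7.0 per the labels' protocols and as 8.0.1 per the file headers, with build GRCm39. Cells needed 500 UMIs and 300 genes, which removed 20 and 14 barcodes. Libraries were clustered together in scanpy 1.11.5 (Python 3.11.15, 3000 variable genes, 40 principal components, 15 neighbours, Leiden resolution 1) and neurons again on their own. Clusters were named from 34 marker lists where the score reached 1, led the next list by 0.35 and had 3 markers up, limits set after the clusters were seen. Clusters left unnamed held 2574 control and 2003 Penk fl/fl cells outside neurons. UMIs were summed per class over the class total, with exact Poisson, conditional binomial and Clopper-Pearson intervals (scipy 1.17.1). Removing doublets with Scrublet did not work (0 and 1 cells called), so all cells were kept. If both libraries were loaded together, their shared droplets would put multiplets at 22.8% of control and 16.8% of Penk fl/fl cells.

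All 8 members were named, with up to 4 genes past the step per list in neurons and the 3 genes most like each member among those reaching 10 CPM, a limit that Fosl1 itself missed. Members and lists were chosen with earlier results of these data known. The intervals were tested on simulated counts with independent UMIs, which is what they assume. That test cannot show whether they hold where UMIs gather in few cells, as for Fos and Fosb. Flanks came from GRCm39 with its canonical transcripts. The alternatives were other scalings, thinning, weightings, cell filters, doublet removal and clustering resolutions.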

Additional observations from a re-analysis of the deposited data

Results flagged for a closer look

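Fosb went in opposite directions in a pair of classes, with a ratio of 0.160 in peptidergic A-fibre-like neurons (56 and 6 UMIs) and 2.59 in myelinating Schwann-like cells (10 and 15 UMIs), and the intervals lay on opposite sides of 1. The difference between the classes was not tested. The first value was 0.379 without the highest cell of each library, and the second was 1.08 when cells were clustered at resolution 0.6.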

How the results depend on the processing

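Each group was 1 library, so depth limited the small counts of Fosb, Fosl1 and Maff and nothing here measures the spread between mice. No paired analysis was possible with 1 pooled library per group.

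The Fos ratio in neurons stayed below 0.8 under all 14 alternatives, from 0.436 to 0.742. Thinned to 500 UMIs, the neuronal ratios were 0.436 for Fos, 0.798 for Fosl2, 1.01 for Jun, 0.865 for Junb, 0.952 for Jund and 1.38 for Maff. Of the members left with at least 50 UMIs 1 was lower by the step (Fosl2, by a narrow margin), as Fos kept 27 and 9 UMIs. The share of all genes lower at that depth was not computed, so this count has no background beside it. Thinned to 2000 UMIs the neuronal ratios were 0.742 for Fos, 0.896 for Fosl2, 1.09 for Jun, 0.905 for Jund and 0.710 for Maff. With each cell weighted equally they were 0.667 for Fos, 0.547 for Fosl1, 1.01 for Jun, 0.940 for Jund and 0.815 for Maff, and with subtypes weighted equally 0.856 for Fosl2, 0.763 for Junb, 0.945 for Jund and 0.725 for Maff. Without the 1% of neurons highest for the member, Fosb was at 0.233 and Fosl1 at 0.589. That step removed 61 of 139 control and 47 of 58 Penk fl/fl neurons with a Fosb UMI. In droplets of 1 library only, Jund was at 0.980. In neurons of named subtypes, also chosen after seeing the data, Fos was at 0.571. Likewise, neurons under the median glial share gave 0.486 for Fos, 0.993 for Jun and 0.982 for Jund.

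Of 1037 alternative values for 105 class ratios, 937 moved by less than counting error, 91 moved by more and 9 called ratios changed direction. The counts of members past the step in single classes moved in 42 of 170 alternative values, the shares held by the highest cells in 14 of 32 and the shares of thinned neurons with a UMI in 12 of 16. With cells weighted equally, Fos (1.19) and Junb (1.10) changed direction in endothelial-like cells. The other called ratios that changed direction so were Maff in Mrgpra3 pruriceptor-like (1.16), Junb in peptidergic A-fibre-like (1.13) and Fosb in proprioceptor-like neurons (1.14). In droplets of 1 library Fosl2 in fibroblast-like (1.01) and Maff in satellite glia-like cells (1.04) changed direction. Under the median glial share, again chosen after seeing the data, Junb in C-LTMR-like (1.01) and Fosl2 in Trpm8 cold-like neurons (1.01) did so. The cause was not tested.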

Other observations

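Among neurons thinned to 2000 UMIs, Jun was found in 31 of 74 control neurons with a Fos UMI, 41.9% (30.5 to 53.9), and in 33.0% (31.7 to 34.3) of those without, and in the Penk fl/fl library in 17 of 43, 39.5% (25.0 to 55.6), and in 36.2% (34.7 to 37.8). Junb was found in 6 of the 74, 8.11% (3.03 to 16.8), beside 4.75% (4.19 to 5.37) of those without Fos, and in 0 of the 43, 0% (0 to 8.22), beside 3.93% (3.34 to 4.60). Each pair of intervals overlaps, which is a coarse reading and no test, so a link between Fos and either Jun gene within neurons was not shown. For Fosl2 and Junb the control intervals lay apart, with Junb in 9.7% (6.25 to 14.2) of neurons with Fosl2 and 4.57% (4.01 to 5.18) of those without. In the Penk fl/fl library they overlapped, at 5.77% (2.67 to 10.7) and 3.81% (3.22 to 4.48). The part of subtype in this was not tested.

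The unnamed cluster 1, whose leading genes mixed satellite glia and Schwann markers, held 483 and 223 Fos UMIs, or 17.1 and 15.2 CPM (0.893, 0.758 to 1.05). It had 0 of 7 members past the step in either direction, against 4.04% of genes lower and 5.90% higher. So small a set is not set apart from those shares.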
